A study of Mus musculus with 8 samples.

Results

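Levels of 10 genes of the integrated stress response were read out in sorted blood progenitors of diabetic db/db mice and of db/m controls. They are the transcription factor Atf4, its partners in transcription Ddit3 and Atf3, and 7 genes known as outputs of Atf4, namely Trib3, Ddit4, Sesn2, Chac1, Asns, Psat1 and Phgdh. The members were chosen by gene symbol, and all 10 were found among the 13708 genes of the deposited count table. The cells were LSK cells of the bone marrow, sorted as lacking lineage markers and carrying Sca-1 and c-Kit, a population of blood stem cells and early progenitors. Of the libraries, 4 came from db/db animals of the strain B6.BKS(D)-Leprdb/J, homozygous for the mutated leptin receptor, and 4 came from db/m animals of the strain B6.BKS(D)-Leprdb/+, heterozygous for it, so that every library carries at least 1 mutated allele. All 8 libraries carry the label of 6 months after diabetes, the db/m libraries included, and groups follow the genotype label, since the db/m name stands in all 8 titles.

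The integrated stress response begins with kinases that each sense a different stress, such as unfolded protein in the endoplasmic reticulum, lack of amino acids, lack of haem or double-stranded RNA, and that phosphorylate the translation factor eIF2. General translation then slows while Atf4 messenger RNA is translated better, so that much of the control of Atf4 lies in translation, which RNA levels do not show. Atf4 pairs with C/EBP proteins on a composite DNA element and switches on genes of amino acid supply, redox balance and, under lasting stress, cell death. In blood stem cells the pathway is known as a checkpoint on cells with damaged protein.

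The element is usually written with the core TGATGNAA, and matches to these letters in the members' promoters are shown here. Whether the matches are the sites through which Atf4 reads these genes was not tested. In RefSeq promoter windows of the build GRCm38.p6, from 250 bases before to 50 bases after each start, both strands were searched, and the core was present in 4 of the 10 members, Chac1, Atf3, Asns and Trib3. Of all 27025 genes with a window, 4.51% held it in at least 1 window. The matches, with the core in capitals, read 5′ to 3′ on the strand of the gene, so that a core on the other strand stands as its reverse complement:

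Chac1, chr2:119351038-119351067, plus strand: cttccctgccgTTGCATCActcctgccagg

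Atf3, chr1:191183425-191183454, minus strand: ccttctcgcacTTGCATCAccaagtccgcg

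Asns, chr6:7693214-7693243, minus strand: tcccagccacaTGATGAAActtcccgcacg

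Trib3, chr2:152344028-152344057, minus strand: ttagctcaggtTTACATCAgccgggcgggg

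The core began 193 bases before the start in Chac1, 110 bases before it in Atf3 and 23 bases before it in Asns, and in Trib3 it lay just past the start. A looser core, TGNTGNAA, which contains the first and was chosen after the sequences were seen, matched 7 members and 16.6% of all genes. The 3 members added are enzymes of serine synthesis and a sestrin:

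Psat1, chr19:15925177-15925206, minus strand: acgcgggtggcTGGTGCAAtcccctgctct

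Phgdh, chr3:98340074-98340103, minus strand: aagggcttcacTGCTGGAAgtgtagtctgt

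Sesn2, chr4:132510656-132510685, minus strand: catgcaaaagtTTGCAGCAtctgtgcgagg

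Trib3 held a second match to the looser core, 33 bases before its start, whose 8 letters TGGTGCAA are also those of the Psat1 match. A match is a description of letters and not a measured binding site.

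Depth ran from 27640853 to 42806327 counts on genes in a library, and levels are given in CPM, counts scaled to a common total by the TMM method. Whether the libraries are of separate mice is not said in the labels, so the p-values measure only how far these samples spread, which may be technical. Of the marker genes of LSK cells none was at 0 in any library, and their summed level was 3590 to 4883 CPM in db/db and 3428 to 4288 CPM in db/m. Ly6a, which encodes the Sca-1 antigen of the sort, was lower in db/db, with a log2 fold change of -1.83 ± 0.24 (SE, edgeR quasi-likelihood adjusted p = 0.0445). Lepr, the mutated gene, had 17 to 74 counts in db/db libraries and 3 to 41 in db/m libraries. The db mutation alters splicing of Lepr and does not delete it, so these counts do not check the genotypes. Replicate 3 of db/db and replicate 3 of db/m stood apart in the genes described here, and member values that move most with them are given with and without them.

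None of the 10 genes differed between db/db and db/m at an adjusted p under 0.05 in edgeR's quasi-likelihood test across all genes. Only 5 of all 13708 genes did, which is 0.0365% (0.0146% higher and 0.0219% lower in db/db). At an unadjusted p under 0.05 there were 2 members, Chac1 and Phgdh, both lower in db/db, against 15.3% of all genes. DESeq2 and edgeR's likelihood ratio test each called 1 member, Chac1. DESeq2 called 5.64% of the 13433 genes to which it gave an adjusted p, and the likelihood ratio test 4.28% of all 13708. limma-voom called no member, and it called none of the 13708 genes. The groups overlapped in every member, while 9.03% of all genes had groups that did not overlap, 4.53% with db/db below db/m. A positive log2 fold change was found in 5 members and a negative one in 5, where 48.6% of all genes were negative, and the median of the members was 0.01, beside 0.01 for all genes. That balance changed without both replicates 3, an omission chosen after their values were seen. Then 8 of 10 members were negative, all but Trib3 and Ddit4, and the median was -0.29, beside 0.02 for all genes. The omission takes out a db/db library high in Atf3 and Asns and a db/m library low in Atf4, Ddit3 and Atf3. It therefore lowers these fold changes by itself, and no direction is drawn from it. In a bulk library a lower level can mean fewer cells of a type or less RNA per cell, and these cannot be told apart.

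**Figure D1:**
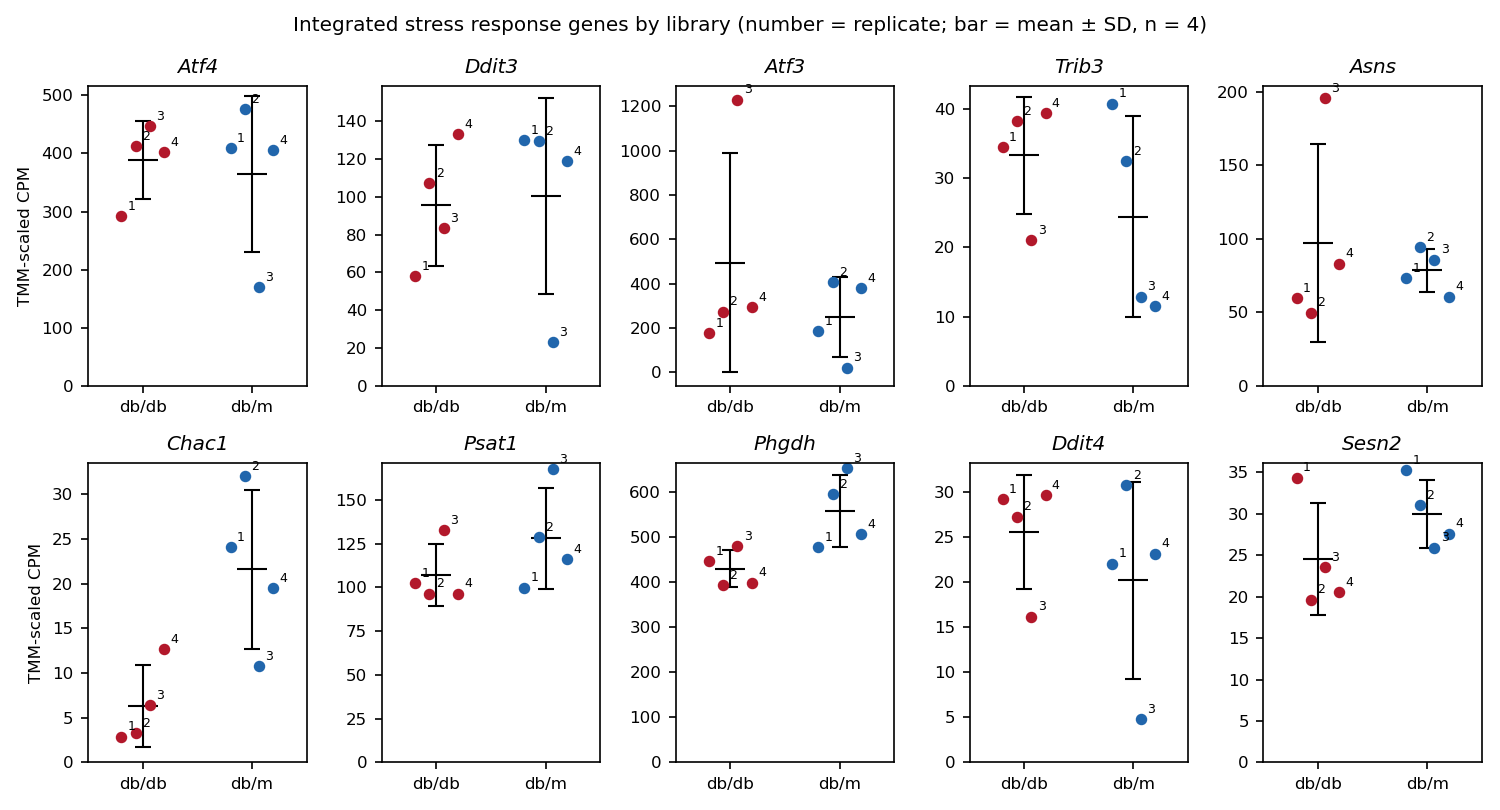
TMM-scaled CPM of the 10 genes, 1 panel per gene, with db/db left of db/m; each point is a library marked with its replicate number, and bars give the mean ± SD of 4 libraries. The 4 db/db libraries lie between 2.88 and 12.7 CPM for Chac1 and the db/m libraries between 10.8 and 32.0 CPM, and replicate 3 of db/db stands alone in Atf3 at 1230.3 CPM.

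Levels between genes were compared per kilobase of the deposited gene length. Phgdh averaged 264 CPM per kb over the 8 libraries, Atf4 218, Atf3 188 and Ddit3 112 CPM per kb. Psat1 at 47.2 and Asns at 45.6 CPM per kb formed a middle level. Trib3 at 14.1, Ddit4 at 13.6, Sesn2 at 10.3 and Chac1 at 8.89 CPM per kb were the lowest. Of neighbours in this order only Asns and Trib3 kept it in all 8 libraries. Sesn2 was above Chac1 in 4 of 8 libraries and Phgdh above Atf4 in 5 of 8, so these levels were not separated. The order over 8 libraries held in neither group alone. In db/db Atf3 led at 249.7 CPM per kb, above Phgdh at 230.1, and Chac1 was last at 4.02, while in db/m Chac1 at 13.8 CPM per kb was above Ddit4, Trib3 and Sesn2.

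Chac1, on chromosome 2 from 119351242 to 119354327 (mm10, plus strand), encodes an enzyme that breaks down glutathione and is known as a late output of Atf4 with Ddit3 and Atf3. It had 2.88, 3.28, 6.41 and 12.7 CPM in db/db libraries 1 to 4, against 24.1, 32.0, 10.8 and 19.5 CPM in db/m libraries 1 to 4. Of the db/db libraries 3 were below every db/m library, and db/db replicate 4 was above db/m replicate 3. The means were 6.32 ± 4.54 CPM in db/db and 21.6 ± 8.89 CPM in db/m (SD, n = 4 each). The log2 fold change was -1.78 ± 0.50 (SE; 95% interval -2.88 to -0.67), with an unadjusted p of 0.00510 and an edgeR adjusted p of 0.134. The authors' deposited table gives Chac1 a log2 fold change of -1.77 and a false discovery rate of 0.0193, and Chac1 is the only member under 0.05 there, where 2.2% of all genes were under it and lower in db/db. DESeq2 gave an adjusted p of 0.00609. Without both replicates 3 the log2 fold change was -2.01, with an edgeR adjusted p of 0.0885.

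Chac1 was also read against the other members within each library. On the log2 scale Chac1 lay below Atf4 by a difference of -6.63, -6.95, -6.11 and -4.98 in db/db libraries 1 to 4, and of -4.08, -3.89, -3.97 and -4.38 in db/m libraries 1 to 4. Each db/db library had less Chac1 relative to Atf4 than any db/m library, and within db/m this difference was much the same in every library, replicate 3 included. Relative to Ddit3 the differences were -4.30, -5.00, -3.69 and -3.38 in db/db libraries and -2.43, -2.01, -1.10 and -2.61 in db/m libraries, and again the groups did not overlap. They did not overlap relative to Atf3, Trib3 and Ddit4 either, and they overlapped relative to Asns, Psat1, Phgdh and Sesn2. These differences were looked at because Chac1 stood out as low in db/db, so a gap to members with a similar level in both groups follows from that choice, and they carry no test.

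Plasma cell markers went with Chac1. All 12 genes of that list were lower in db/db at an unadjusted p under 0.05, where 7.54% of all genes were. None passed an edgeR adjusted p under 0.05 (10 with DESeq2, 12 with the likelihood ratio test, 0 with limma-voom), and none was at 0 in any library. Their summed level was 1852, 1406, 5425 and 6471 CPM in db/db libraries 1 to 4, against 17749, 18566, 4749 and 13511 CPM in db/m libraries 1 to 4. The db/db libraries with the most Chac1, replicates 3 and 4, also had the most plasma cell RNA, and db/m replicate 3 was lowest of its group in both. The titles of db/db replicates 3 and 4 share a prefix, and those of db/db replicates 1 and 2 share another. Within db/db, title prefix and plasma cell RNA therefore cannot be told apart. Jchain, the joining chain of secreted antibodies, averaged 2992 ± 2168 CPM in db/db and 10942 ± 5435 CPM in db/m, and Mzb1, a chaperone of antibody assembly, 83.1 ± 56.5 CPM in db/db and 307 ± 160.0 CPM in db/m. Lymphoid markers ran from 374 to 752 CPM in sum in db/db and from 1010.5 to 1378 CPM in db/m. Of these markers 6 of 9 were lower in db/db at an unadjusted p under 0.05, where 7.54% of all genes were. The share of uniquely mapped reads between genes ran the same way, at 6.03%, 5.15%, 9.64% and 11.9% in db/db libraries 1 to 4 and 26.3%, 26.5%, 12.2% and 23.4% in db/m libraries 1 to 4. The part of these cells, or of that share, in the Chac1 difference was not tested. Of 10058 genes with a mean log2 CPM of at least 3, St8sia6, a sialyltransferase, and Gpr18, a receptor found on lymphocytes, had the pattern most like that of Chac1, with Pearson r of 0.990 and 0.988 over the 8 libraries (Spearman rho 0.976 for each). All likeness values here were picked as the highest of many and describe these 8 libraries, which share 2 groups.

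**Figure D2:**
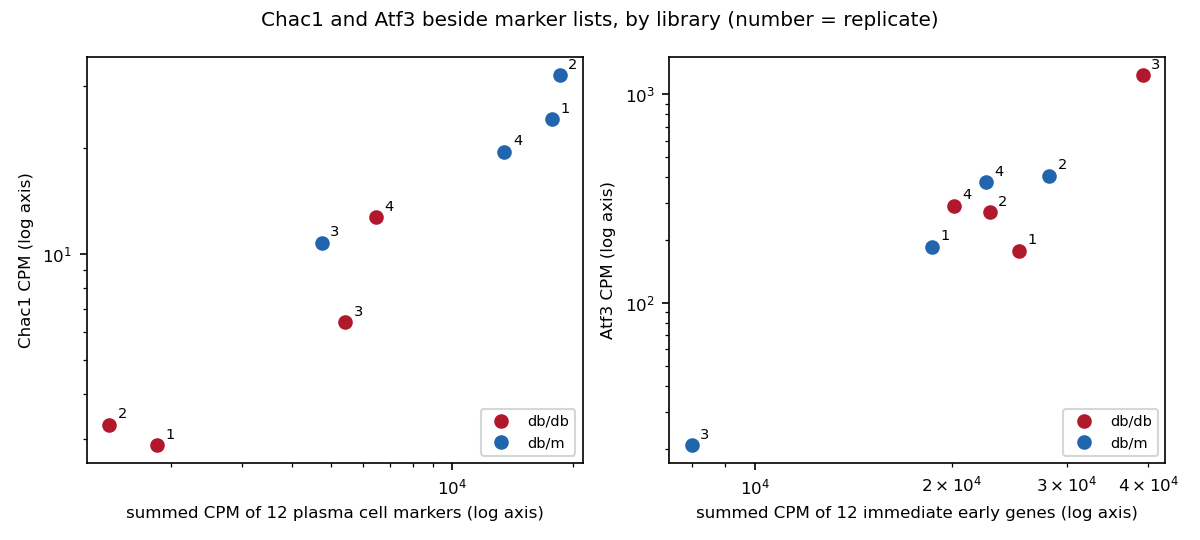
Chac1 against the summed CPM of 12 plasma cell markers, and Atf3 against the summed CPM of 12 immediate early genes, both axes in TMM-scaled CPM on a log scale; each point is a library with its replicate number. The db/db libraries hold 1406 to 6471 CPM of plasma cell markers and the db/m libraries 4749 to 18566 CPM, and db/m replicate 3 is lowest in Atf3 and in immediate early genes at 7997 CPM.

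Atf4, the factor at the centre of the response, lies on chromosome 15 from 80255184 to 80257545 (plus strand). Its level was 292, 412, 448 and 402 CPM in db/db libraries 1 to 4, against 409, 477, 169.7 and 406 CPM in db/m libraries 1 to 4. The other 7 libraries were within 292 to 477 CPM, and db/m replicate 3 was below them, at 39.4% of the mean of the other db/m libraries. The means of 388 ± 67.4 CPM in db/db and 365 ± 134 CPM in db/m did not differ beyond that spread (log2 fold change 0.09 ± 0.28, SE; 95% interval -0.53 to 0.71; edgeR adjusted p = 0.916). Without db/m replicate 3 the log2 fold change was -0.16, and without both replicates 3 it was -0.22 (adjusted p = 0.464), so the sign of the Atf4 difference rests on 1 library. Maff, a small Maf factor, and Zbtb10, a zinc finger protein, had the pattern most like that of Atf4, each with Pearson r of 0.989 over 8 libraries (Spearman rho 0.952 and 0.881), and 0.971 and 0.937 over the 7 libraries without db/m replicate 3.

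Ddit3 encodes CHOP, the factor known for cell death under lasting stress of the endoplasmic reticulum, and lies on chromosome 10 from 127290793 to 127296288 (plus strand). It had 58.0, 107, 83.4 and 133 CPM in db/db libraries and 129.7, 129.5, 23.1 and 119 CPM in db/m libraries. The other db/m libraries were close together and db/m replicate 3 was at 18.3% of their mean, below every db/db library. The log2 fold change was -0.07 ± 0.46 (SE; 95% interval -1.09 to 0.95; edgeR adjusted p = 0.964), and -0.41 without db/m replicate 3. Its sign turned under several settings and no direction is given for it. Exons of Ddit3 share 68 bases with Mars on the other strand in the GENCODE M21 annotation, and between 54.3% and 54.8% of coding reads were in sense, so reads of these bases cannot be assigned to 1 gene. Eif1, a translation start factor, had the pattern most like that of Ddit3 (Pearson r = 0.988, Spearman rho 0.857, 8 libraries).

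Atf3 is a stress factor that is also known as an immediate early gene, and it lies on chromosome 1 from 191170297 to 191183333 (minus strand). Its level was 178, 273, 1230.3 and 292 CPM in db/db libraries 1 to 4, against 186, 408, 20.8 and 380.0 CPM in db/m libraries 1 to 4. The highest and the lowest values were 59.0-fold apart, the widest range of the 10 genes, and both were in replicates 3. The log2 fold change of 0.99 ± 0.81 (SE; 95% interval -0.83 to 2.80; edgeR adjusted p = 0.612) was -0.0051 without db/db replicate 3 and -0.39 without both. The 12 immediate early genes, a list that also rises when tissue is dissociated, summed to 25371, 22871, 39183 and 20137 CPM in db/db libraries and 18633, 28186, 7997 and 22584 CPM in db/m libraries. The highest and lowest libraries of that list were the highest and lowest of Atf3, and none of its genes was at 0 in any library. All 12 had a positive log2 fold change (median 0.49), where 48.6% of all genes had a negative one. Of the 12, 2 passed an unadjusted p under 0.05, near the 15.3% of all genes that did. None passed the adjusted threshold of edgeR, DESeq2 or limma-voom. Without both replicates 3, 7 of 12 were positive and the median was 0.016. Their part in the Atf3, Atf4 and Ddit3 values was not tested. Fosb, itself on the immediate early list, had the pattern most like that of Atf3 (Pearson r = 0.989, Spearman rho 0.976, 8 libraries; Pearson r 0.961 without db/m replicate 3).

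**Figure D3:**
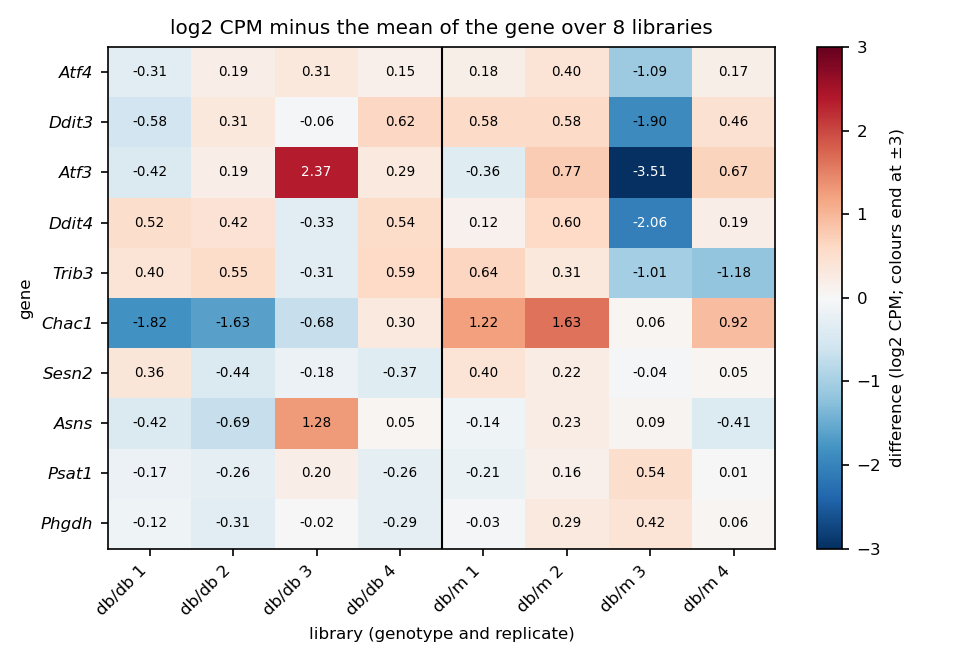
Log2 CPM of each gene in each library minus the mean of the gene over 8 libraries, db/db libraries left and db/m libraries right, with colours ending at ±3. In db/m replicate 3, Atf4, Ddit3, Atf3 and Ddit4 are the lowest of the 8 libraries while Psat1 and Phgdh are the highest.

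Trib3, Ddit4 and Sesn2 act on signalling. Trib3, a pseudokinase that restrains Akt and Atf4 itself, had 34.4, 38.2, 21.1 and 39.4 CPM in db/db libraries and 40.8, 32.5, 12.9 and 11.5 CPM in db/m libraries. The 2 lowest libraries were db/m replicates 3 and 4, and the groups overlapped. For Trib3 the log2 fold change was 0.45 ± 0.40 (SE; 95% interval -0.44 to 1.34; edgeR adjusted p = 0.642), and leaving out 1 library moved it between 0.21 (db/m replicate 4) and 0.81 (db/m replicate 1). Ddit4, which encodes the mTORC1 inhibitor REDD1, had 29.2, 27.3, 16.2 and 29.6 CPM in db/db libraries and 22.1, 30.8, 4.82 and 23.2 CPM in db/m libraries. Each replicate 3 was the lowest of its group, with db/m replicate 3 at 19.0% of the other db/m libraries. The log2 fold change of 0.34 ± 0.45 (SE; 95% interval -0.66 to 1.34; edgeR adjusted p = 0.769) was 0.0018 without db/m replicate 3 and 0.18 without both replicates 3. Sesn2, a leucine-sensing inhibitor of mTORC1, had 34.3, 19.6, 23.6 and 20.6 CPM in db/db libraries and 35.3, 31.1, 25.9 and 27.6 CPM in db/m libraries. Of the db/db libraries 3 were below every db/m library, and db/db replicate 1 was above 3 of them. For Sesn2 the log2 fold change was -0.29 ± 0.20 (SE; 95% interval -0.73 to 0.15; edgeR adjusted p = 0.532), and leaving out 1 library moved it between -0.50 (db/db replicate 1) and -0.20 (db/db replicate 2).

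Trib3 lies on chromosome 2 from 152337425 to 152344060, Ddit4 on chromosome 10 from 59949675 to 59951770, and Sesn2 on chromosome 4 from 132492807 to 132510456, all on the minus strand. The genes of most similar pattern over 8 libraries were Mast4 for Trib3 (Pearson r = 0.979, Spearman rho 0.905), Faap20 for Ddit4 (Pearson r = 0.991, Spearman rho 0.905) and Pde4a for Sesn2 (Pearson r = 0.941, Spearman rho 0.929).

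The remaining 3 members make amino acids. Asns, asparagine synthetase, lies on chromosome 6 from 7675171 to 7693182 (minus strand) and had 59.9, 49.8, 196 and 83.2 CPM in db/db libraries and 73.2, 94.4, 85.8 and 60.7 CPM in db/m libraries. Replicate 3 of db/db was 3.04-fold above the mean of the other db/db libraries, and the range of the db/m libraries overlapped that of those others. For Asns the log2 fold change was 0.31 ± 0.38 (SE; 95% interval -0.54 to 1.16; edgeR adjusted p = 0.756) with all libraries, and -0.29 without db/db replicate 3. In that library the erythroid markers were also highest, at 4989 CPM in sum against 1724 to 2338 CPM in the other db/db libraries and 902 to 1207 CPM in db/m libraries. Of 14 erythroid markers 13 were higher in db/db at an unadjusted p under 0.05, where 7.78% of all genes were. None of these markers passed an edgeR adjusted p under 0.05 (4 with DESeq2, 8 with the likelihood ratio test, 0 with limma-voom), and none was at 0 in any library. Their part in the Asns value was not tested. Las1l, a factor of ribosome assembly, had the pattern most like that of Asns (Pearson r = 0.978, Spearman rho 0.929, 8 libraries).

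Phgdh, the first enzyme of serine synthesis from glucose, lies on chromosome 3 from 98313171 to 98339969 (minus strand). It had 448, 394, 481 and 399.7 CPM in db/db libraries and 478, 597, 653 and 508 CPM in db/m libraries. The groups overlapped by 1 library, since db/db replicate 3 was just above db/m replicate 1. The means were 431 ± 41.5 CPM in db/db and 559 ± 80.6 CPM in db/m, with a log2 fold change of -0.38 ± 0.13 (SE; 95% interval -0.67 to -0.08), an unadjusted p of 0.0179 and an adjusted p of 0.220 by edgeR. Phgdh kept a negative value under every setting tried, from -0.44 to -0.30. Psat1, the next enzyme of that route, lies on chromosome 19 from 15905123 to 15925059 (minus strand). It had 102, 96.3, 133 and 96.4 CPM in db/db libraries and 99.9, 129, 167 and 116 CPM in db/m libraries. The other db/db libraries were close together and db/db replicate 3 was above all but 1 of the db/m libraries. For Psat1 the log2 fold change was -0.26 ± 0.17 (SE; 95% interval -0.64 to 0.13; edgeR adjusted p = 0.517). It was -0.11 without db/m replicate 3, -0.38 without db/db replicate 3 and -0.22 without both. Eif3c was most like Phgdh (Pearson r = 0.973, Spearman rho 0.952) and Nop9 most like Psat1 (Pearson r = 0.991, Spearman rho 1) over 8 libraries.

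**Figure D4:**
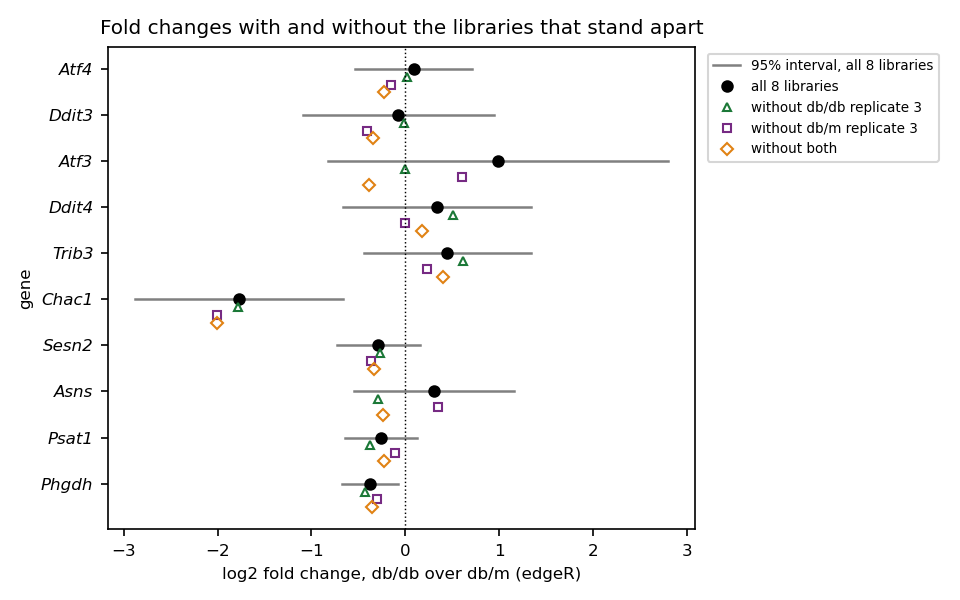
Log2 fold change of db/db over db/m for the 10 genes by edgeR, with all 8 libraries and 95% intervals, and without db/db replicate 3, db/m replicate 3 or both. Chac1 lies between -2.01 and -1.78 in these fits, while Atf4, Atf3 and Asns change sign.

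The genes around Atf4 were read from lists by role. Of 12 eIF2 kinases, regulators and phosphatase genes, 2 were lower in db/db at an unadjusted p under 0.05 and none higher, where 7.54% of all genes were lower and 7.78% higher. Eif2ak3, the kinase PERK of the endoplasmic reticulum, averaged 34.9 ± 4.13 CPM in db/db and 52.7 ± 15.2 CPM in db/m (log2 fold change -0.60, edgeR adjusted p = 0.209). Dnajc3, an inhibitor of these kinases that is itself an output of the unfolded protein response, averaged 179 ± 21.5 CPM in db/db and 289 ± 82.5 CPM in db/m (log2 fold change -0.69, edgeR adjusted p = 0.135). The kinases for haem, double-stranded RNA and amino acids, Eif2ak1, Eif2ak2 and Eif2ak4, had log2 fold changes of -0.15, 0.02 and -0.01 with unadjusted p of 0.249, 0.934 and 0.924. Ppp1r15a, the stress-induced phosphatase subunit GADD34, averaged 1189 ± 262 CPM in db/db and 910.4 ± 364 CPM in db/m (log2 fold change 0.38, edgeR adjusted p = 0.604), with db/m replicate 3 lowest at 388 CPM. Ppp1r15b, its constitutive counterpart, had a log2 fold change of -0.07, and Ppp1ca, the catalytic subunit, one of -0.23. None of 8 eIF2 and eIF2B subunit genes passed an unadjusted p under 0.05, and the 3 of smallest p, Eif2s1, Eif2b5 and Eif2b4, had log2 fold changes of -0.16, -0.16 and -0.19.

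Other amino acid synthesis genes were read beside Phgdh and Psat1. Of 15 genes 13 had a negative log2 fold change, where 48.6% of all genes did, and the median was -0.43, beside 0.01 for all genes. In that direction 7 passed an unadjusted p under 0.05, where 7.54% of all genes did. None passed an edgeR adjusted p under 0.05 (3 with DESeq2, 0 with limma-voom). Pycr1, the last enzyme of proline synthesis, had 14.5, 8.03, 20.0 and 24.2 CPM in db/db libraries and 55.9, 66.1, 30.5 and 40.9 CPM in db/m libraries. All db/db libraries were below all db/m libraries (log2 fold change -1.53 ± 0.34, SE; edgeR adjusted p = 0.0941). Gpt2, an alanine aminotransferase, averaged 10.3 ± 2.53 CPM in db/db and 18.3 ± 1.23 CPM in db/m (log2 fold change -0.83, edgeR adjusted p = 0.111), and Got1, an aspartate aminotransferase, 29.0 ± 1.78 CPM in db/db and 40.5 ± 4.20 CPM in db/m (log2 fold change -0.48, edgeR adjusted p = 0.116). Groups of both genes did not overlap. With Pycr1 this made 3 of the 15 genes, where 4.53% of all genes had db/db below db/m without overlap.

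All 17 cytosolic aminoacyl-tRNA synthetases, the enzymes that load amino acids onto tRNA, had a negative log2 fold change, where 48.6% of all genes did. Their median was -0.19, and their summed levels overlapped, at 2720 to 3650 CPM in db/db and 3217 to 4175 CPM in db/m. The highest sum was in db/m replicate 3. Of these 17, 3 were lower at an unadjusted p under 0.05, Cars, Mars and Yars, where 7.54% of all genes were lower at that p. None passed the edgeR adjusted threshold (1 with DESeq2, 0 with limma-voom). Cars averaged 63.7 ± 9.12 CPM in db/db and 90.3 ± 11.1 CPM in db/m (log2 fold change -0.50, edgeR adjusted p = 0.122). Its groups did not overlap, which held for 1 of the 17, where 4.53% of all genes had db/db below db/m without overlap. Mars had a log2 fold change of -0.52 and Yars one of -0.40. Among 10 amino acid transporters, Slc3a2, the heavy chain shared by several of them, averaged 488 ± 155 CPM in db/db and 1076 ± 391 CPM in db/m (log2 fold change -1.14, edgeR adjusted p = 0.116). Slc43a1, a transporter of neutral amino acids, averaged 83.1 ± 34.9 CPM in db/db and 46.5 ± 5.39 CPM in db/m (log2 fold change 0.84, edgeR adjusted p = 0.154), and Slc1a5, a glutamine transporter, had a log2 fold change of -0.33.

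Of 8 partner factors 1 passed an unadjusted p under 0.05, no more than the 15.3% of all genes that did. This was Atf5, at 0.807 ± 0.166 CPM in db/db and 1.55 ± 0.337 CPM in db/m (log2 fold change -0.94, edgeR adjusted p = 0.301). Cebpb, a C/EBP partner of Atf4, and Nfe2l1 had log2 fold changes of -0.37 and -0.27. Of 11 other stress outputs 1 passed, again no more than the 15.3% of all genes, and this was Vldlr, the very low density lipoprotein receptor. Vldlr had 28.3, 16.7, 16.3 and 23.8 CPM in db/db libraries and 54.8, 44.5, 114 and 81.4 CPM in db/m libraries (log2 fold change -1.80 ± 0.30, SE; edgeR adjusted p = 0.0797). Its groups did not overlap, where 4.53% of all genes had db/db below db/m without overlap. Sesn1, a relative of Sesn2, had a log2 fold change of 0.43 and Gadd45b one of -0.96, neither past an unadjusted p of 0.05.

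The Xbp1 and Atf6 branches of the unfolded protein response, which run beside the eIF2 branch, had the most genes with differences among these lists. Of 19 genes, 16 were lower in db/db at an unadjusted p under 0.05, where 7.54% of all genes were. Groups did not overlap in 12, where 4.53% of all genes had db/db below db/m without overlap. The median log2 fold change was -1.03, and none passed an edgeR adjusted p of 0.05 (14 with DESeq2, 13 with the likelihood ratio test, 0 with limma-voom). Xbp1, the factor spliced by the sensor Ire1 and also needed by antibody-secreting cells, averaged 409 ± 149 CPM in db/db and 1214 ± 413 CPM in db/m (log2 fold change -1.57, edgeR adjusted p = 0.0803). Edem1 and Sel1l, which serve the disposal of misfolded protein, had log2 fold changes of -1.54 and -1.29 (edgeR adjusted p = 0.0797 for each). The 2 genes with a positive log2 fold change were Hspa5 and Dnajb9. Hspa5, the chaperone BiP, averaged 5158 ± 1802 CPM in db/db and 4205 ± 2377 CPM in db/m (log2 fold change 0.29, edgeR adjusted p = 0.777). Dnajb9 had a log2 fold change of 0.31 (edgeR adjusted p = 0.686). In both genes db/m replicate 3 was the lowest library. Hspa5 was at 1733 CPM there and at 3466 to 7413 CPM in the other db/m libraries. Dnajb9 was at 33.0 CPM there and at 89.7 to 121 CPM in those others. The plasma cell marker sums given beside Chac1 were lower in db/db as well, and their part in these values was not tested.

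**Figure D5:**
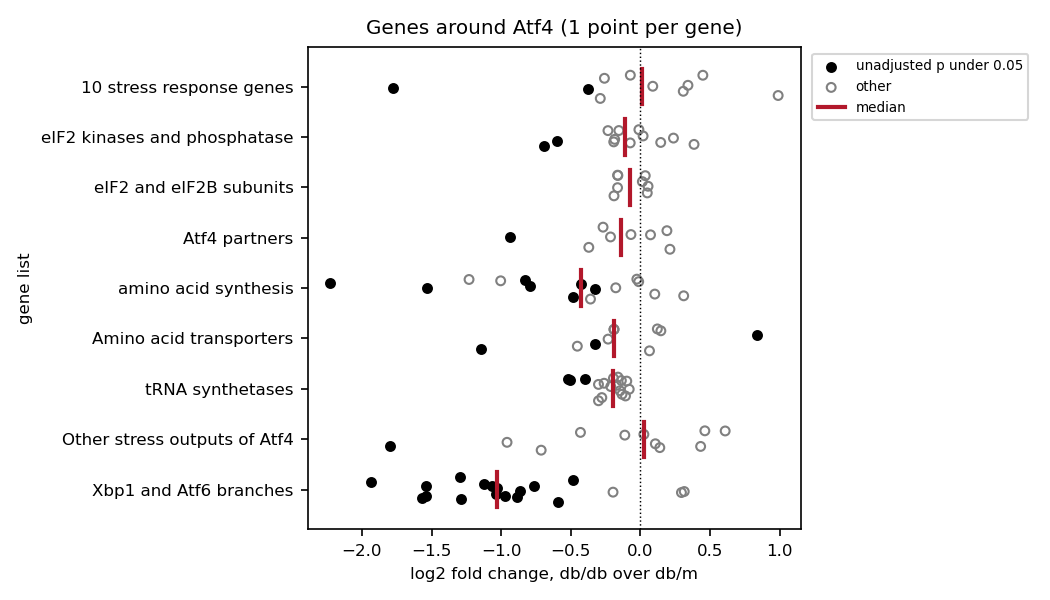
Log2 fold change of db/db over db/m for every gene of the lists around Atf4, 1 point per gene, with the median of each list. With all 8 libraries, medians run from -1.03 in the Xbp1 and Atf6 branches to 0.02 in the other stress outputs. The median of the 10 genes of the response is 0.01. It was -0.29 without both replicates 3, an omission chosen after their values were seen and not drawn here.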

How the data were processed

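Poly(A) RNA of LSK cells, isolated with Trizol, was sequenced from ultralow-input libraries, per the labels' protocols. Reads were processed with STAR 2.7.10a, featureCounts of Subread 2.0.3, FastQC 0.11.5 and edgeR 3.40.2 on mm10, per the submitters' processing notes. No source used here gives the annotation or strand setting. The authors deposited raw counts for 13708 genes, with the smallest row total at 79, their own log2 fold changes, and p-values with false discovery rates. Mapping reads per region were deposited by the authors too. The symbol of 21 rows reads as a date.

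The tests ran in edgeR 4.0.16 under R 4.3.3: TMM scaling, filterByExpr, which removed no gene, the quasi-likelihood test between db/db and db/m over all 8 libraries without covariates, and Benjamini-Hochberg adjustment at 0.05. The biological coefficient of variation was 31.3%. Every pair of libraries of the same group differed beyond sampling noise (chi-square per gene at least 47.9). In simulated data for db/db against db/m, with 13626 genes and 200 changed, 57.1% of 2-fold and 83.8% of 4-fold changes were recovered with 5.44% false calls. Simulated libraries were drawn independently around a shared mean per gene, without outlying libraries or shifts in cell mixture. These rates may therefore not hold for the real libraries.

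Members and lists were chosen with earlier results of these data known. Named genes are all members, the 3 of smallest p per pathway list, the eIF2 kinases, Ppp1r15a, Ppp1r15b, Xbp1, Hspa5, Lepr, listed genes past the adjusted threshold, leading markers, and for each member up to 2 genes of highest Pearson r of log2 CPM with a prior count of 2. Dnajb9 and Ncr1 were named in addition. Alternatives were upper-quartile and RLE scaling, no filter or at least 1 CPM in 4 libraries, DESeq2 1.42.0, limma-voom (limma 3.58.1) with and without quality weights, the likelihood ratio test, the title prefix as a correlated block and the omission of each library. The omission of both replicates 3 was added after their values were seen. Replicate numbers follow the order of deposit and pair nothing across groups.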

Additional observations from a re-analysis of the deposited data

Results flagged for a closer look

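Of 54 groups of 4 libraries, 5 held a library whose gap to its nearest neighbour took most of the range of its group, where chance gives about 1 in 20. Atf3 in db/db was 1230.3 CPM in replicate 3, with the other db/db libraries between 178 and 292 CPM. Psat1 in db/db was 133 CPM in replicate 3, with the others between 96.3 and 102 CPM. The summed level of eIF2 and eIF2B subunit genes in db/db was 849 CPM in replicate 3, with the others between 622 and 659 CPM. The summed level of lymphoid markers in db/db was 752 CPM in replicate 4, with the others between 374 and 385 CPM. Ddit3 in db/m was 23.1 CPM in replicate 3, with the others between 119 and 129.7 CPM.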

How the results depend on the processing

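The count of genes called, 5 by edgeR's quasi-likelihood test, was 0 with upper-quartile scaling and with limma-voom, 757 with DESeq2, 192 with quality weights, 587 with the likelihood ratio test, 14 with the title prefix as a correlated block and 195 without both replicates 3. Leaving out 1 library gave 0 to 90 calls, with 90 when db/m replicate 3 was omitted, 46 for db/db replicate 4, 2 for db/m replicate 1 and 0 for each of the others. Members called went from 0 to 1, Chac1, with DESeq2 and the likelihood ratio test. Chac1 kept its direction, from -2.37 to -1.52. Leaving out 1 library gave -0.29 to 0.52 for Asns, -0.0051 to 1.33 for Atf3, -0.16 to 0.24 for Atf4 and -0.41 to 0.10 for Ddit3. Asns reversed to -0.15 with quality weights, -0.24 without both replicates 3 and -0.29 without db/db replicate 3. Atf3 reversed to -0.0051 without db/db replicate 3 and -0.39 without both. Atf4 reversed to -0.039 with quality weights, -0.16 without db/m replicate 3 and -0.22 without both. Ddit3 reversed to 0.16 with limma-voom, 0.17 with the correlated block, and 0.10, 0.08, 0.07 and 0.02 without db/db replicate 1 or db/m replicates 1, 2 or 4. The cause was not tested for settings other than omissions. No paired analysis was possible because the title numbers run within prefixes that each occur in 1 genotype. With 4 libraries a group, the 95% interval of each of the 10 members includes changes of over 1.5 times in at least 1 direction.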

Other observations

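Marker lists of other cells that the text has not yet described also differed in level between the groups, and their part in the values of the stress response genes was not tested. Megakaryocyte markers summed to 1948 to 3109 CPM in db/db libraries and 783 to 1530 CPM in db/m libraries. Of these, 9 of 10 were higher in db/db at an unadjusted p under 0.05, where 7.78% of all genes were. Granulocyte and monocyte markers summed to 2251 to 5527 CPM in db/db libraries and 3322 to 13616 CPM in db/m libraries. Of these, 4 of 10 were lower in db/db at that p, where 7.54% of all genes were. Markers of T and NK cells, which the sort for lineage-negative cells should remove, summed to 168 to 213 CPM in db/db libraries and 230.3 to 423 CPM in db/m libraries, with 7 of 8 lower in db/db at that p. Nkg7 and Lck made up nearly all of that sum, while Cd3e, which marks T cells, averaged 0.747 CPM in db/db and 4.27 CPM in db/m, and Ncr1, which marks NK cells, 0.274 CPM in db/db and 1.08 CPM in db/m. No gene of these lists passed an adjusted p under 0.05 in edgeR's quasi-likelihood test, and limma-voom called 0. DESeq2 called 9, 4 and 5 of them in that order, beside 5.64% of all genes to which it gave an adjusted p.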
